A study of Mus musculus with 6 samples.

Results

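The 10 genes followed here were the growth factor genes Hgf, Fgf2, Pdgfa, Pdgfb, Pdgfc, Pdgfd and Hbegf and the receptor genes Met, Fgfr1 and Fgfr3. They were taken by symbol from a table of 17714 genes, and all 10 were present and tested. The libraries came from mice of the WT genotype at day 3, with 3 libraries labelled MI (myocardial infarction) and 3 labelled sham (sham operation). All 6 carried the labels heart and lymphatic endothelial cells, and the labels also name a serum-containing DMEM culture medium, a shared step whose place in the experiment they do not give. The labels give no age, no sorting step and no statement that libraries came from separate animals, so each p-value rests on the variation among these 6 libraries alone, which may be technical. The study's subject, by its title, is CCL2 of lymphatic endothelium and its role in lymphatic growth and macrophage removal after infarction.

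Hepatocyte growth factor, encoded by Hgf, is made mainly by mesenchymal and myeloid cells and acts on cells that carry the receptor tyrosine kinase Met, with effects on cell movement, survival and vessel growth. Fibroblast growth factors bind heparan sulfate and the Fgfr receptor kinases on neighbouring cells, and in lymphatic endothelium Fgfr3 is a known target of the lineage factor Prox1. Platelet-derived growth factors are dimers that signal to fibroblasts through Pdgfra and to pericytes and smooth muscle through Pdgfrb, and endothelial Pdgfb is the signal that holds pericytes on capillaries. Heparin-binding EGF-like growth factor, encoded by Hbegf, is cut from the cell surface and activates Egfr and Erbb4.

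Hgf and its receptor gene Met were far more abundant in MI libraries than in sham libraries (13.0-fold and 39.8-fold), Pdgfc and Pdgfa were also higher (4.50-fold and 1.63-fold), and Pdgfd, Fgfr3, Pdgfb, Fgf2 and Fgfr1 were lower (7.72-fold, 4.56-fold, 2.80-fold, 2.49-fold and 2.48-fold). Hbegf did not pass the test. Thus 4 genes rose and 5 fell (edgeR quasi-likelihood fit, called at an adjusted p below 0.05 by the Benjamini-Hochberg method over 13370 genes). Change was the rule in these libraries: 73.3% of all genes tested were called, 36.4% of all as higher and 36.9% of all as lower in MI, so being called does not set these 10 genes apart. The 9 called genes kept direction and call under all 14 alternative settings of the fit; Hbegf joined the falls under 2 of them. When libraries were scaled to total counts, 34.9% of all calls were rises against 49.6% in the TMM scaling used for the reported values, and the median log2 fold change of all genes was -0.36. Set against that median, the 10 log2 fold changes lay between -2.93 for Pdgfd and 5.33 for Met.

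Depth and cell content differed between the groups and stand beside every result that follows. The MI libraries held 21154200 to 21689212 estimated counts and the sham libraries 3206373 to 3591135, a 6.29-fold difference in the means. MI 1 stood apart from MI 2 and MI 3 beyond counting noise, so the genes that were high in it (Hgf, Met, Pdgfd and Pdgfc) are also given without it. The 10 pan-endothelial marker genes summed to 1945 to 2030 CPM (depth-scaled counts) in MI and 8492 to 8620 CPM in sham, and all 10 fell, Pecam1 and Cdh5 among them. Of 10 macrophage and monocyte markers, 9 rose and 1 fell, with sums of 14064 to 15146 CPM in MI and 3148 to 3317 CPM in sham; Adgre1 rose 5.09-fold and Cd68 14.5-fold. All 6 neutrophil markers tested rose, S100a8 and S100a9 among them, with sums of 643 to 802 CPM in MI and 34.4 to 43.1 CPM in sham. Mural cell markers, Pdgfrb and Rgs5 among them, fell in 8 of 8 genes (847 to 852 CPM in MI, 3099 to 3134 CPM in sham), and cardiomyocyte markers, Myh6 and Tnnt2 among them, in 7 of 7 (93.7 to 107 CPM in MI, 1598 to 1665 CPM in sham). The fibroblast markers Col1a1 and Col1a2 rose and the other 6 fell (1051 to 1101 CPM in MI, 1170 to 1200 CPM in sham). Platelet markers rose in 2 of 5 genes tested, Pf4 and Ppbp, with sums of 338 to 450 CPM in MI and 112 to 129 CPM in sham. Of 3 epicardial markers tested all 3 fell, Wt1 and Upk3b among them (9.03 to 10.2 CPM in MI, 24.7 to 33.4 CPM in sham). Lymphocyte markers summed to 1.87 to 2.07 CPM in MI and 3.60 to 5.94 CPM in sham, and of 2 tested, Cd79a fell 5.91-fold and Ms4a1 was not called, with Cd3e at 0 counts in MI and Cd3g, Ncr1 and Nkg7 at 0 counts in sham. The 7 lymphatic markers summed to 252 to 262 CPM in MI and 388 to 402 CPM in sham, and 6 fell and 1 rose. The lineage genes Prox1 and Flt4 averaged 1.26 ± 0.456 and 29.6 ± 1.33 CPM in MI and 7.12 ± 0.548 and 69.4 ± 4.19 CPM in sham (SD, n = 3). Of the other lymphatic markers, Lyve1 was at 12.5 ± 0.752 CPM in MI and 214 ± 3.89 CPM in sham, and Ccl21a at 7.70 ± 1.01 CPM in MI and 64.02 ± 9.39 CPM in sham. The marker that rose was Pdpn, at 202 ± 7.01 CPM in MI and 4.93 ± 0.960 CPM in sham, which made up most of the lymphatic sum in MI. Cd79a, Ms4a1, Lyve1, Ccl21a and Pdpn were named after their values were seen. Myeloid, endothelial, mural and muscle transcripts were thus all present in libraries labelled as lymphatic endothelial cells, and the part of this mixture in the results was not tested. In such bulk RNA, fewer cells of a type and less RNA per cell cannot be told apart.

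Promoter sequence was at hand in RefSeq (GRCm38.p6) for 7 of the 10 genes, in 10 windows of 250 bases before to 50 after an annotated start. Shown are the first windows of 4 genes: Hgf and Met, a ligand and its receptor that rose together, and Pdgfc and Pdgfd, sister ligands that moved in opposite directions. Capitals mark matches on either strand to any of 6 motifs: the GC box GGGCGG, the CCAAT box CCAAT, the TATA box TATAAA, the AP-1 site TGANTCA, the E-box CACGTG and an NF-kB site. Each is written 5′ to 3′ on the plus strand, which is the gene's own strand in all 4.
The Hgf window is chr5:16553245-16553544, the Met window chr6:17463707-17464006, the Pdgfc window chr3:81036166-81036465 and the Pdgfd window chr9:6168236-6168535. Positions count from each window's annotated start, which for Hgf and Pdgfc is the gene start given below. For Met and Pdgfd it is a later start. The Met window lies wholly downstream of the gene start at 17463349. The Pdgfd gene start at 6168363 falls inside its window.
Hgf: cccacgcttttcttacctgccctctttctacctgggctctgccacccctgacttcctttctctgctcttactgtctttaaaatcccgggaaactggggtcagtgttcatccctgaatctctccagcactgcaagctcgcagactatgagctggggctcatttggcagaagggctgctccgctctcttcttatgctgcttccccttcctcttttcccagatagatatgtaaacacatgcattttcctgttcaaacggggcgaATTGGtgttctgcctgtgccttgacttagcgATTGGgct
Met: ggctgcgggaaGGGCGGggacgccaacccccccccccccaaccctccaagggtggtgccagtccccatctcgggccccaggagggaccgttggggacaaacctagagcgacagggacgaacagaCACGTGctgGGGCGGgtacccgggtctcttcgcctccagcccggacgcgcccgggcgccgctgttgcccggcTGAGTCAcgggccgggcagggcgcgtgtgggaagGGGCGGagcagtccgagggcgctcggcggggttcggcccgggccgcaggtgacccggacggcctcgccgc
Pdgfc: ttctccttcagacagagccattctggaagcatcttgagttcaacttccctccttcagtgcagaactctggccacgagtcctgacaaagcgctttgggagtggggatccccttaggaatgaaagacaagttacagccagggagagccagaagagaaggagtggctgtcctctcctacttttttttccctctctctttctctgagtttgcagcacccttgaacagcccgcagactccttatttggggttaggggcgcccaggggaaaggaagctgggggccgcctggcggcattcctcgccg
Pdgfd: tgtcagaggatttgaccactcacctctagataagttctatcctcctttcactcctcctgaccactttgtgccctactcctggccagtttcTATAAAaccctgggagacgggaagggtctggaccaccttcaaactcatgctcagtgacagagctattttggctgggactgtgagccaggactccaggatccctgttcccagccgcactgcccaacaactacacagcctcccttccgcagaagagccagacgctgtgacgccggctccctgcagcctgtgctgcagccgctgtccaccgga
Although Hgf and Met rose together, their windows shared none of the 6 motifs. Met had 75.7% G and C, 34 CpG pairs, 3 GC boxes, 1 AP-1 site and 1 E-box. The AP-1 site began 54 bases before the window's annotated start (position -54), but downstream of the gene start at 17463349. Hgf had 51.3% G and C, 7 CpG pairs and 2 CCAAT matches, both after the start. Over all 32851 windows in the RefSeq table the median was 52.7% G and C and 7 CpG pairs. Pdgfc and Pdgfd had 55% and 56.7% G and C and 8 CpG pairs each. Pdgfc held none of the motifs. Pdgfd held 1 TATA box, beginning at position -160 from its window's annotated start and upstream of the gene start at 6168363. Among all windows, 35.7% held a GC box, 37.4% a CCAAT box, 13.6% a TATA box, 7.81% an AP-1 site, 7.15% an E-box and 1.63% an NF-kB site. A match describes letters only and is not a bound site.

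Levels of the 10 genes can be compared with each other in TPM (abundance scaled by the authors for depth and transcript length). In MI the order ran Pdgfb, Hbegf, Met, Hgf, Pdgfa, Pdgfd, Pdgfc, Fgfr1, Fgfr3 and Fgf2, and the ranges of neighbours overlapped from Met through Pdgfc, so the order within those 5 is not resolved. In sham it ran Pdgfb, Pdgfd, Hbegf, Fgfr3, Fgfr1, Pdgfa, Fgf2, Pdgfc, Hgf and Met, with overlapping neighbours only for Fgf2, Pdgfc and Hgf. Met was the third in MI and the lowest of the 10 in sham, while Pdgfd ranked 6 in MI and 2 in sham. Pdgfb was first in both groups. The TPM of MI and sham did not overlap for 10 of the 10 genes, beside 75.6% of all genes tested.

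**Figure D1:**
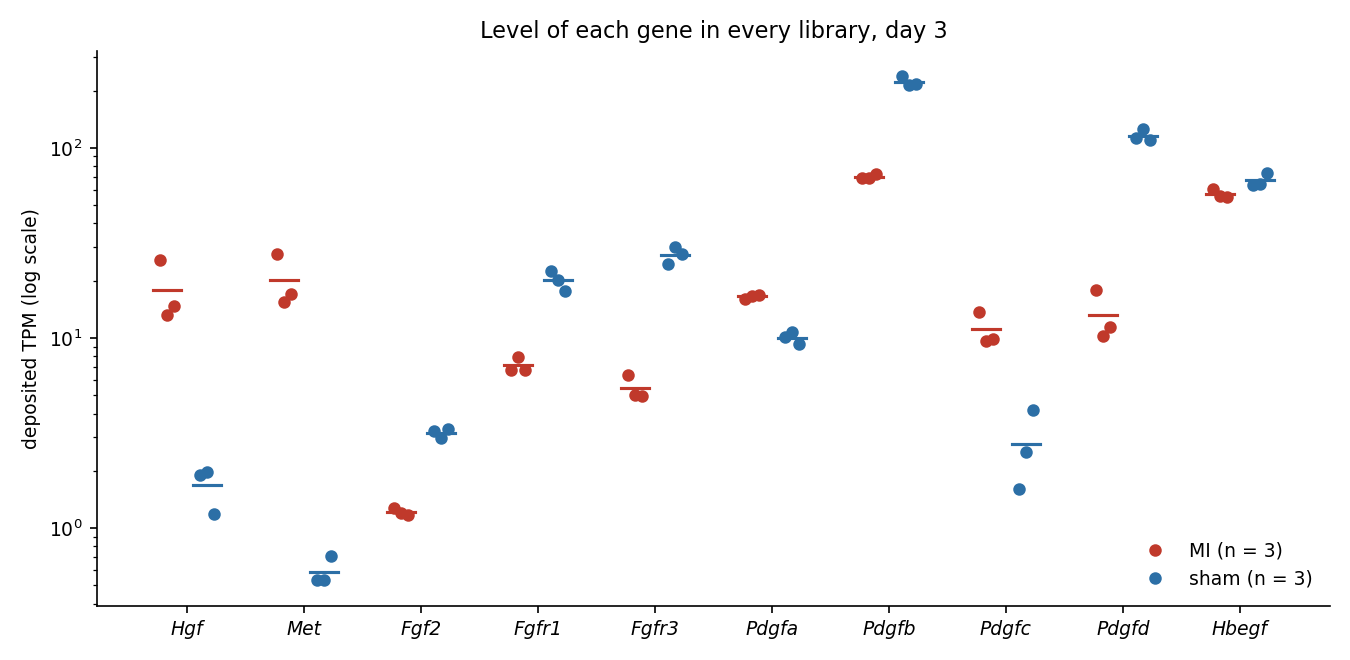
Deposited TPM (log axis) of the 10 genes in each library, with MI in red to the left and sham in blue to the right; points are libraries (n = 3 per group) and bars are means. The groups do not overlap at any of the 10 genes; Hgf, Met and Pdgfc are higher in MI by the widest margins and Pdgfd and Fgfr3 lower.

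Among the 7 ligand genes of the 10, Hgf had the largest fold change upward. Its gene lies on chromosome 5 from 16553495 to 16619439 (GRCm38.p6) and is protein coding, as are the other 9. Hgf stood at 25.8, 13.2 and 14.6 TPM in MI 1, MI 2 and MI 3, against 1.89, 1.98 and 1.19 TPM in the sham libraries. Every MI library lay far above every sham library, and MI 1 was well above the other MI libraries. The sham values rest on few reads, 16.4, 14.0 and 13.0 estimated counts. On the CPM scale Hgf averaged 48.6 ± 15.2 in MI and 3.72 ± 0.212 in sham (SD, n = 3), a log2 fold change of 3.70 ± 0.28 (SE; edgeR adjusted p = 1.67e-07). Only a small share of genes rose more, since this fold change lay at percentile 97.2 of all genes tested. Without MI 1 the log2 fold change was 3.44.

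Met, the receptor of Hgf, had the largest fold change of the 10 genes. It lies on chromosome 6 from 17463349 to 17573980. Met stood at 27.7, 15.5 and 17 TPM in MI 1 to MI 3, against 0.53, 0.53 and 0.71 TPM in the sham libraries, where 6 to 8.78 estimated counts were behind each value. The sham libraries were all near the lower limit of what this depth can measure, and the MI libraries were all well above it. In CPM the means were 76.3 ± 20.8 in MI and 1.92 ± 0.512 in sham (SD, n = 3), and the log2 fold change of 5.32 ± 0.29 (SE; edgeR adjusted p = 8.63e-09) lay at percentile 98.99 of all genes. Like its ligand, Met was highest in MI 1, at 1.56 times the mean CPM of the other MI libraries, against 1.66 times for Hgf; 3.67% of the 10376 genes with at least 5 CPM in MI exceeded a ratio of 1.5 there. Leaving MI 1 out gave a log2 fold change of 5.09 for Met. Summed macrophage and neutrophil markers were lowest in MI 1 among the MI libraries, at 14064 and 643 CPM, and their part in this was not tested. Met overlaps no other annotated gene in GENCODE M21. Hgf, Pdgfa, Pdgfb, Pdgfc, Pdgfd, Fgfr1 and Fgfr3 do overlap other genes there. Except for Ddi1 (0 to 1 counts per library), which overlaps Pdgfd, those genes are not among the 17714 genes. Reads of these shared stretches cannot be assigned with certainty.

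The ligand to receptor ratio moved with these changes. The log2 ratio of Hgf to Met TPM was -0.18 ± 0.07 in MI and 1.35 ± 0.59 in sham (SD, n = 3), so transcripts of ligand and receptor were close to parity in MI and ligand exceeded receptor in sham. The difference of -1.53 had an exact two-sided permutation p of 0.1 (adjusted 0.111 over the 10 ratios computed), which is the smallest p that 3 against 3 libraries allow. The groups did not overlap.

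The list of Hgf partners holds activators, inhibitors and signal genes of Hgf, and Mst1r, the gene of a related receptor. Of 9 tested, 7 were higher and 2 lower (median log2 fold change 1.12, against -0.01 over all genes tested). Over all genes tested, 36.4% were higher and 36.9% lower, shares that also stand beside the counts of each later partner list. Plau, which encodes urokinase and can activate pro-HGF, rose 6.76-fold, to 699 ± 13.2 CPM in MI against 103 ± 5.47 CPM in sham (SD, n = 3). Spint1, an inhibitor of HGF-activating proteases, had 421 counts over the MI libraries and 0 over the sham libraries, and was at least 28.4-fold higher against a floor of 3 counts over the sham group, a bound for counting error only. The related inhibitor gene Spint2, named after its values were seen, went the other way. It fell 2.22-fold, to 3.73 ± 1.10 CPM in MI against 8.30 ± 0.350 CPM in sham (SD, n = 3). The docking protein gene Gab1 rose 2.10-fold and Cbl, a ubiquitin ligase that removes activated Met, 3.35-fold. St14, Hpn and Mst1r, named after their values were seen, had 9 to 12 counts over the sham libraries; the count of higher genes was 4 under DESeq2, total-count scaling and thinned MI libraries, and also without MI 1, MI 2, MI 3 or sham 1.

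Fgf2, Fgfr1 and Fgfr3 all fell. Fgf2, a heparan-bound mitogen of endothelial cells and fibroblasts, lies on chromosome 3 from 37348477 to 37410106. It stood at 1.28, 1.20 and 1.17 TPM in MI libraries and at 3.23, 2.99 and 3.32 TPM in sham libraries. All MI values were below all sham values, and the spread of TPM within each group was small. In CPM the spread was wider relative to the mean, at 3.43 ± 0.571 in MI and 8.53 ± 0.990 in sham (SD, n = 3). The log2 fold change was -1.32 ± 0.21 (SE), with an edgeR adjusted p of 1.30e-04. Nudt6 overlaps Fgf2 on the opposite strand, with 49.4 to 77.0 counts in MI and 18.8 to 24.3 in sham; no strand setting is given, so reads of the shared stretch cannot be assigned with certainty and the Fgf2 value is uncertain.

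Fgfr1, the broadly expressed receptor on chromosome 8 from 25518759 to 25575718, stood at 6.74, 7.96 and 6.79 TPM in MI and at 22.6, 20.1 and 17.6 TPM in sham. Its log2 fold change was -1.31 ± 0.14 (SE; edgeR adjusted p = 4.09e-06), close to that of Fgf2. The log2 ratio of Fgf2 to Fgfr1 TPM was -2.46 ± 0.16 in MI and -2.62 ± 0.22 in sham (SD, n = 3), and the groups overlapped (exact permutation p = 0.3, adjusted 0.3). This difference of 0.16 was within the spread between libraries.

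Fgfr3, on chromosome 5 from 33721724 to 33737068, had the larger fold change of the pair of receptors. Its values were 6.38, 5.02 and 4.92 TPM in MI and 24.4, 30.0 and 27.7 TPM in sham, with no overlap. The log2 fold change of -2.19 ± 0.12 (SE; edgeR adjusted p = 1.11e-08) was similar in size to the median of -2.08 over the pan-endothelial markers. Fgfr3 was below Fgfr1 in every MI library and above it in every sham library: the log2 ratio was -0.40 ± 0.29 in MI and 0.44 ± 0.29 in sham (SD, n = 3; exact permutation p = 0.1, adjusted 0.111, the groups not overlapping). The remaining receptor genes were scarce. Fgfr2, the receptor of Fgf7 and Fgf10, was at 0.16 to 0.34 TPM in MI and 0.22 to 0.39 TPM in sham, and Fgfr4 had 3 counts over the MI libraries and 0 over the sham libraries; neither reached the count filter.

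**Figure D2:**
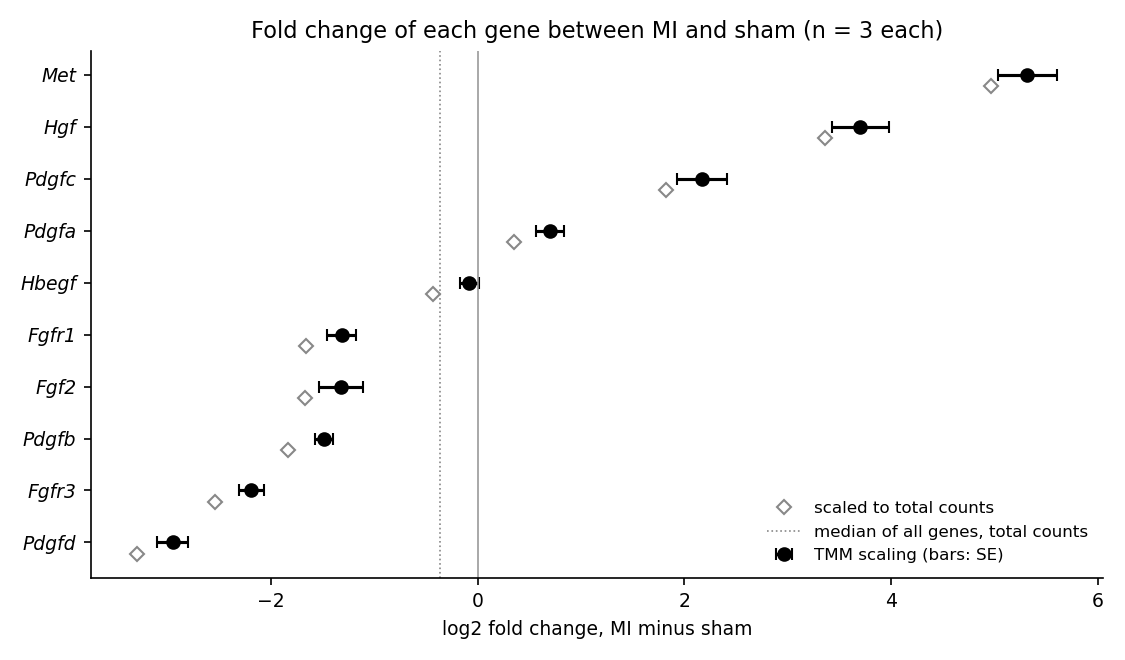
Log2 fold change, MI minus sham, of the 10 genes with TMM scaling (filled points, bars are SE) and with libraries scaled to total counts (open diamonds), n = 3 libraries per group; the dotted line is the median of all genes under total-count scaling, -0.36. Met (5.32) and Pdgfd (-2.95) mark the ends, and Hbegf lies at 0 within its SE under TMM scaling and near the dotted line under total counts.

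Of 12 other Fgf genes, 4 had enough counts to test, and 3 fell and 1 rose (median -1.69). Fgf1, which binds every Fgf receptor, fell 4.31-fold, to 4.95 ± 0.479 CPM in MI against 21.4 ± 0.388 CPM in sham (SD, n = 3). The intracellular family members Fgf11 and Fgf13 fell 3.64-fold and 2.87-fold, and Fgf14, also intracellular, rose 2.49-fold. Of 6 coreceptor and adaptor genes tested, 2 rose and 3 fell (median -0.56). Flrt3, a membrane protein that binds Fgf receptors, rose 36.3-fold, to 56.8 ± 7.77 CPM in MI against 1.53 ± 1.28 CPM in sham (SD, n = 3), and its relative Flrt2 fell 1.82-fold. Of the receptor adaptors, Frs2 rose 1.85-fold and Frs3 fell 4.27-fold.

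The 4 Pdgf ligand genes went in opposite directions, Pdgfb and Pdgfd lower and Pdgfa and Pdgfc higher. Pdgfb, the pericyte-recruiting ligand on chromosome 15 from 79995865 to 80024614, stood at 69.2, 69.5 and 72.6 TPM in MI against 239, 214 and 216 TPM in sham. Values within each group were tight, and the log2 fold change was -1.48 ± 0.09 (SE; edgeR adjusted p = 1.59e-08). Even after this fall Pdgfb was the most abundant of the 10 genes in every MI library.

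Pdgfd, whose product is secreted with a CUB domain that must be cleaved off, lies on chromosome 9 from 6168363 to 6534284 and had the largest fall of the 10 genes. It was at 17.8, 10.2 and 11.4 TPM in MI and at 113, 125 and 109 TPM in sham. No MI library came near a sham library, and MI 1 was the highest of the MI libraries. The log2 fold change of -2.95 ± 0.15 (SE; edgeR adjusted p = 4.99e-09) lay at percentile 2.16 of all genes and was -3.14 without MI 1.

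Pdgfc, the other ligand with a CUB domain, lies on chromosome 3 from 81036416 to 81214040 and rose. It was at 13.7, 9.64 and 9.88 TPM in MI and at 1.61, 2.50 and 4.18 TPM in sham. Relative to their mean the sham libraries were more spread than the MI libraries, on 11.9 to 28.0 estimated counts, and the groups did not overlap. The log2 fold change was 2.17 ± 0.25 (SE; edgeR adjusted p = 6.89e-06), and it ran from 1.72 to 2.59 over the 14 settings, with 2.07 without MI 1.

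Pdgfa, the classical Pdgfra ligand on chromosome 5 from 138976014 to 139000792, rose least. It was at 16.1, 16.6 and 16.9 TPM in MI and at 10.2, 10.7 and 9.26 TPM in sham, without overlap. Its log2 fold change was 0.70 ± 0.13 (SE; edgeR adjusted p = 5.04e-04), and 0.35 with an adjusted p of 0.0302 when libraries were scaled to total counts. Set against the median of all genes in that scaling it was 0.72.

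Summed over the family, Pdgf ligand transcripts stood at 111 ± 5.39 TPM in MI and 352 ± 12.6 TPM in sham (SD, n = 3). Pdgfb made up 63.4 ± 3.65% of that sum in MI and 63.4 ± 2.48% in sham, a share that differed by less than the spread between libraries (exact permutation p = 1, adjusted 1; n = 3 per group). The remainder changed hands: Pdgfd held 11.7 ± 3.07% in MI and 32.97 ± 2.29% in sham, Pdgfa 14.9 ± 0.997% in MI and 2.86 ± 0.156% in sham, and Pdgfc 9.91 ± 1.58% in MI and 0.796 ± 0.403% in sham. Each of these 3 shares had an exact two-sided permutation p of 0.1 (adjusted 0.133 over the 4 shares, n = 3 per group), the smallest the design allows. The Pdgfd to Pdgfc log2 ratio was 0.22 ± 0.15 in MI and 5.44 ± 0.70 in sham, the widest shift of the 10 ratios (exact permutation p = 0.1, adjusted 0.111, n = 3 per group).

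**Figure D3:**
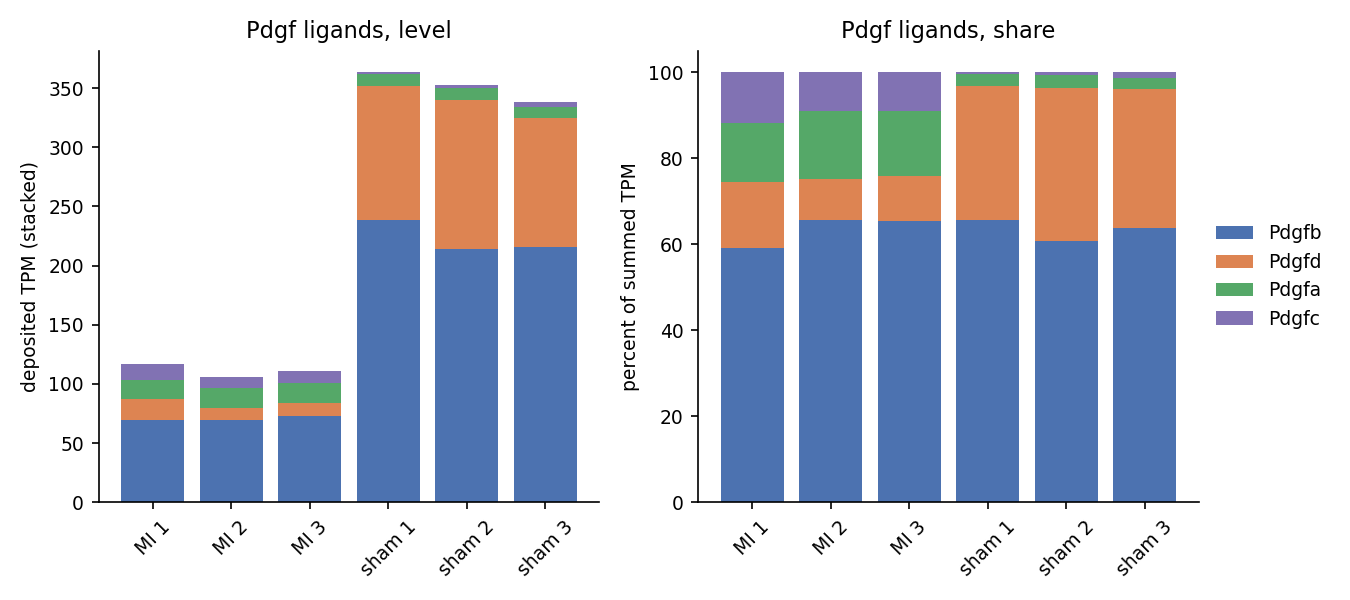
Deposited TPM of Pdgfb, Pdgfd, Pdgfa and Pdgfc stacked per library (left) and as a percent of their sum (right), MI libraries left of sham libraries. The Pdgfb share is 63.4% on average in both groups, while Pdgfd takes 11.7% in MI and 32.97% in sham.

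Both Pdgf receptor genes fell. Pdgfra, the fibroblast receptor, was at 3.42, 2.37 and 2.89 TPM in MI and at 11.3, 10.7 and 10.0 TPM in sham, 3.31-fold lower by CPM. Pdgfrb, the mural cell receptor, was at 13.9, 12.9 and 12.8 TPM in MI and at 32.1, 37.2 and 32.3 TPM in sham, 2.29-fold lower. With Pdgfa and Pdgfc up and Pdgfra down, the log2 ratio of Pdgfa to Pdgfra was 2.49 ± 0.28 in MI and -0.08 ± 0.08 in sham (SD, n = 3), and that of Pdgfc to Pdgfra was 1.90 ± 0.14 in MI and -2.01 ± 0.75 in sham. Pdgfb to Pdgfrb shifted little, at 2.41 ± 0.09 in MI and 2.72 ± 0.18 in sham, and Pdgfd to Pdgfrb was -0.05 ± 0.36 in MI and 1.77 ± 0.04 in sham. None of these 4 ratios overlapped between groups, and each had an exact permutation p of 0.1 (adjusted 0.111, n = 3 per group). The share of such ratios over all gene pairs was not computed, so non-overlap cannot be said to set these pairs apart. Among single genes, 75.6% of all tested did not overlap in TPM.

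**Figure D4:**
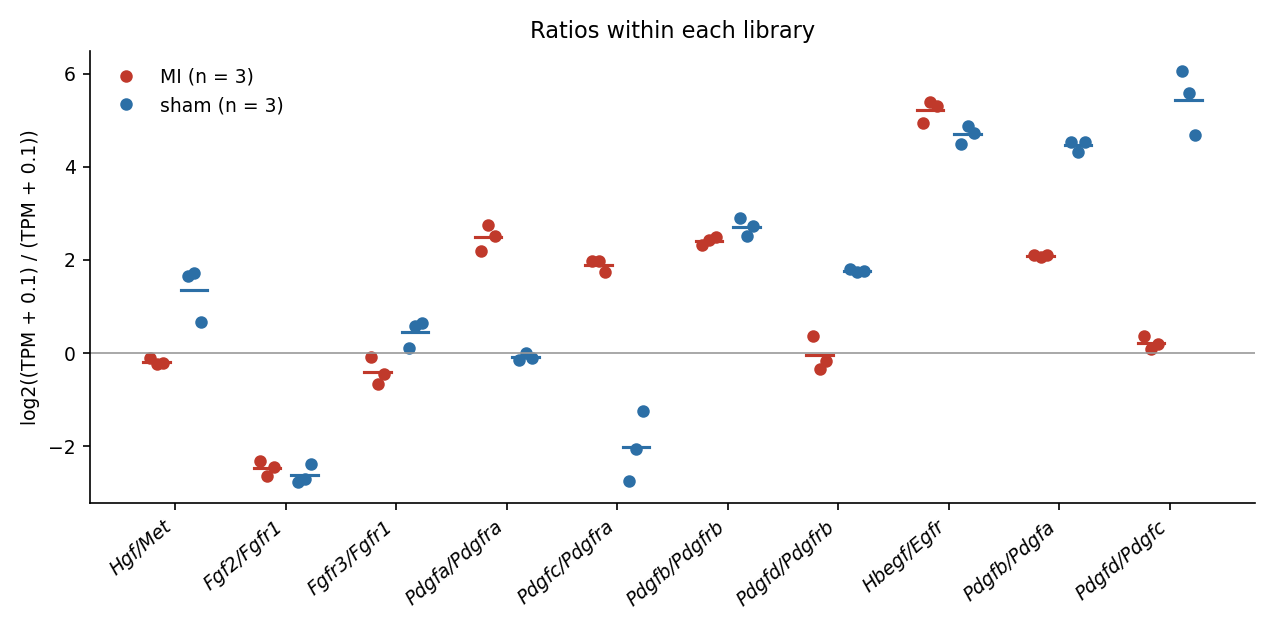
Log2 ratio of TPM (0.1 TPM added to each) for 10 gene pairs in each library, MI in red to the left and sham in blue to the right, bars are means of 3 libraries. The groups overlap for Fgf2/Fgfr1 and are apart for the other 9 pairs, most widely for Pdgfd/Pdgfc (0.22 in MI, 5.44 in sham). The share of pairs that are apart was not computed over all gene pairs.

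Among 8 genes that process Pdgf ligands or bind them, 3 rose and 5 fell (median -1.06). The count of higher genes was 2 under DESeq2, total-count scaling and thinned MI libraries. It was also 2 without MI 1, MI 2, MI 3, sham 1 or sham 2. St14, a gene of this list that rose, had 12 counts over the sham libraries and was named after its values were seen. Furin, the protease that matures pro-PDGF-A and pro-PDGF-B, rose 7.37-fold, to 528 ± 27.7 CPM in MI against 71.7 ± 0.455 CPM in sham (SD, n = 3). Plau, whose product can activate PDGF-D, rose 6.76-fold, whereas Plat, which encodes the tissue plasminogen activator that cleaves PDGF-C, fell 2.40-fold. The coreceptor gene Nrp1 fell 2.62-fold, to 396 ± 60.9 CPM in MI against 1039 ± 19.2 CPM in sham.

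Hbegf was abundant in both groups and its call depended on the scaling. It lies on chromosome 18 from 36504927 to 36515805. Its TPM were 60.6, 55.9 and 55.04 in MI and 64.1, 64.6 and 74.1 in sham, slightly lower in every MI library than in any sham library. On the TMM-scaled CPM scale the groups overlapped, at 78.7 ± 2.54 in MI and 83.3 ± 7.24 in sham (SD, n = 3). The log2 fold change was -0.08 ± 0.09 (SE; edgeR adjusted p = 0.450), with a 95% interval of -0.29 to 0.12. Scaled to total counts it fell by 0.43 on the log2 scale (adjusted p = 0.00127), which is -0.07 relative to the median of all genes there, and limma on log2(TPM + 1) gave -0.24 (adjusted p = 0.0345). All of these were negative, and the size was small in each.

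Egfr, a receptor of Hbegf, was at 1.87, 1.23 and 1.29 TPM in MI and at 2.75, 2.12 and 2.71 TPM in sham, and fell 1.48-fold by CPM (edgeR adjusted p = 0.0231). The log2 ratio of Hbegf to Egfr was 5.22 ± 0.24 in MI and 4.69 ± 0.19 in sham (SD, n = 3; exact permutation p = 0.1, adjusted 0.111). Of 8 genes tested in the Egf family, 4 rose and 3 fell (median 1.31). Areg, an Egfr ligand, rose 5.46-fold, to 48.7 ± 6.05 CPM in MI against 8.92 ± 1.5 CPM in sham, and Nrg1, the neuregulin that acts on Erbb3 and Erbb4, rose 9.21-fold. Ereg had 703 counts over the MI libraries and 1 over the sham libraries, a scaled ratio of 143 with a 95% counting interval of 25.5 to 5637. The receptor gene Erbb2 fell 3.13-fold. With MI libraries thinned to the sham depth, or without MI 3, 1 gene of this list was called lower instead of 3.

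Genes that release Hbegf or hold it at the surface had 5 rises and 3 falls among 9 tested (median 0.37). The sheddase genes Adam9, Adam12 and Adam17 rose 4.32-fold, 5.58-fold and 2.16-fold, and Rhbdf2, which carries Adam17 to the surface, rose 2.76-fold. Other genes of this list went the other way: Rhbdf1 fell 2.25-fold, and Cd9 and Itga3 fell less. Adam10 was not called. Rhbdf1, Cd9, Itga3 and Adam10 were named after their values were seen. Adam17 was at 290 ± 31.5 CPM in MI against 135 ± 5.69 CPM in sham (SD, n = 3).

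Feedback genes and Ets-factor targets that many receptor kinases share were split, with 8 higher and 9 lower of 17 tested (median -0.60). Dusp5, a nuclear phosphatase of ERK, rose 10.4-fold, to 169 ± 8.41 CPM in MI against 16.2 ± 2.04 CPM in sham, and Phlda1 rose 8.55-fold. Dusp6, the cytoplasmic ERK phosphatase widely read as an Fgf response gene, fell 2.26-fold, to 72.1 ± 4.93 CPM in MI against 163 ± 7.97 CPM in sham, and Il17rd, an inhibitor of Fgf receptor signalling, fell 3.60-fold. The heparan sulfate genes, which set how Fgf2, Hgf and Hbegf are held in the matrix, had 10 rises and 10 falls among 22 tested (median 0.09). Hpse, the heparan sulfate-cleaving heparanase, rose 31.8-fold, to 93.8 ± 3.64 CPM in MI against 2.97 ± 0.866 CPM in sham, while the surface proteoglycan genes Sdc4 and Sdc3 rose 4.47-fold and 2.98-fold and the sulfotransferase gene Hs6st1 3.49-fold. Among the 10 falls, the sulfotransferase gene Hs3st1 fell 3.99-fold and the surface proteoglycan gene Sdc2 2.96-fold. The proteoglycan gene Hspg2 fell to 485 ± 14.9 CPM in MI against 915 ± 99.8 CPM in sham. Hs3st1, Sdc2 and Hspg2 were named after their values were seen. Counted once each, 81 partner genes were tested and 38 rose and 38 fell, beside 36.4% higher and 36.9% lower over all genes tested. Their median log2 fold change was 0.10 beside -0.01 over all genes.

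**Figure D5:**
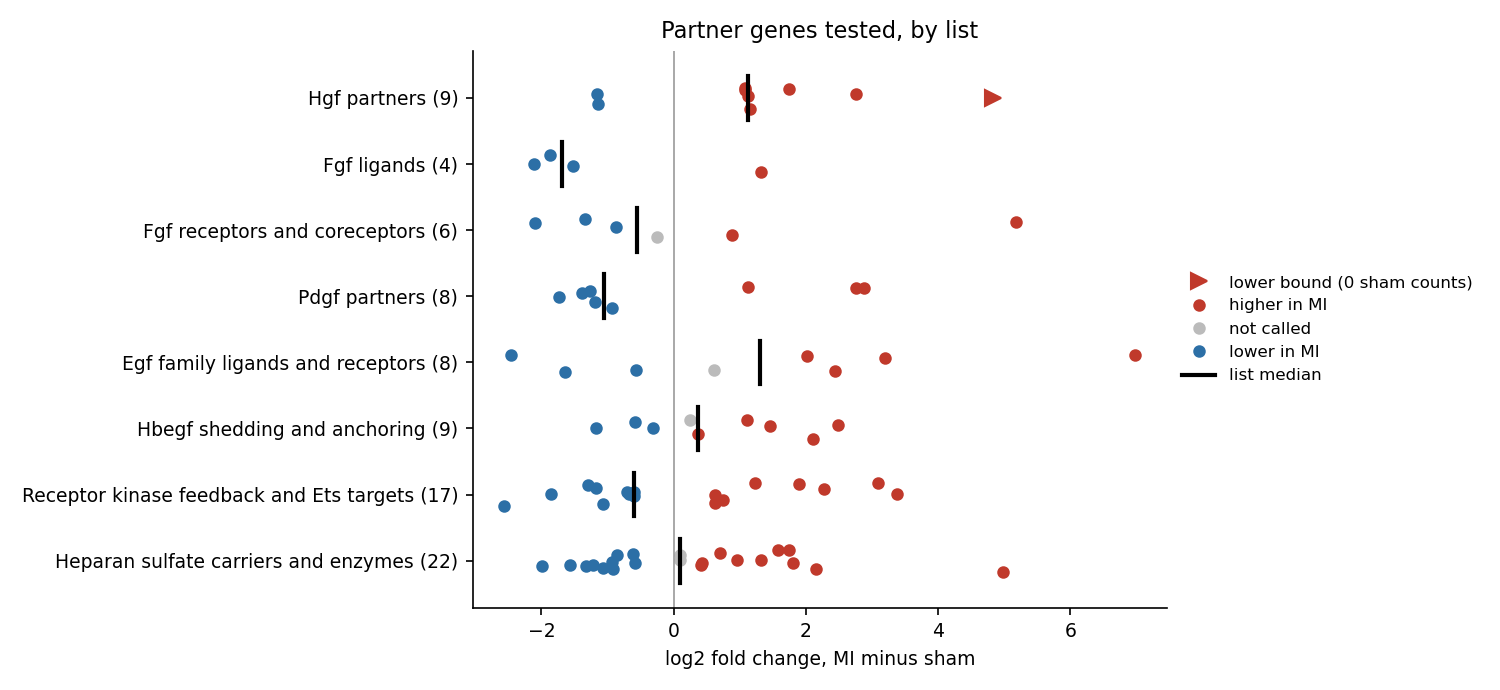
Log2 fold change, MI minus sham, of each partner gene tested, by list (number tested in brackets), coloured by call, with the list median as a black bar; the triangle is Spint1 at its lower bound and the farthest right point is Ereg, with 1 sham count. Rises and falls occur in all 8 lists, and the medians run from -1.69 for other Fgf genes to 1.31 for the Egf family.

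Levels can also be set per 100 CPM of the endothelial marker Pecam1, which itself fell 4.15-fold, so that every gene is shifted upward in MI by that same amount and the direction of each value follows from its own fold change. On this scale Pdgfb stood at 27.1 ± 1.22 per 100 Pecam1 CPM in MI and 18.3 ± 1.44 in sham (SD, n = 3), Fgfr1 at 5.32 ± 0.750 in MI and 3.18 ± 0.451 in sham, and Fgf2 at 0.888 ± 0.158 in MI and 0.532 ± 0.0677 in sham. Fgfr3 was at 3.29 ± 0.332 in MI and 3.61 ± 0.344 in sham, where the groups overlapped. Pdgfd was at 6.16 ± 1.58 in MI and 11.4 ± 0.790 in sham. Per 100 CPM of the macrophage marker Cd68, Hgf was at 3.47 ± 1.54 in MI and 3.72 ± 0.164 in sham, with overlapping groups, and Met at 5.44 ± 2.19 in MI and 1.92 ± 0.503 in sham, without overlap. The other genes that rose were lower per Cd68 in MI, without overlap: Pdgfa was at 1.63 ± 0.0753 in MI and 14.5 ± 1.70 in sham, and Pdgfc at 1.60 ± 0.434 in MI and 5.12 ± 2.37 in sham. Cd68 itself rose 14.5-fold, which shifts every gene downward alike. These ratios are descriptions within mixed libraries, with no test, and they do not say which cells carried the transcripts.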

How the data were processed

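Values came from one deposited table. Its estimated counts are, per the file headers, unscaled read counts from the authors; reads were mapped to mouse GRCm38 per the series design text (GRCm38.p6 per the submitters' processing notes). The authors also deposited TPM and FPKM. Their scaled read counts, a signal value that the authors deposited beside these, and their group means were not used here. The aligner, counter, annotation and strand setting are not given in the sources used here. Agilent Feature Extraction 9.1, a microarray program, appears in those notes with no role.

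Estimated counts were rounded. After filterByExpr, 13370 of 17714 genes stayed, and edgeR 4.0.16 (R 4.3.3) ran its quasi-likelihood test of MI against sham after TMM scaling, with no other term. Benjamini-Hochberg adjustment spanned every gene tested, with calls made under 0.05. Fold changes are MI over sham, and CPM use TMM library sizes. Ratios added 0.1 TPM to each gene and were compared by exact two-sided permutation. The common biological coefficient of variation was 0.103. Chi-square per gene between libraries of a group was 4.28 to 37.3 within MI, MI 1 standing apart, and 1.55 to 1.79 within sham. Each library was entered as a separate replicate, and these values cannot tell separate animals from repeat libraries of the same pool. The 95% interval of a log2 fold change comes from the fit; the interval and bound from counts cover counting error only. The sham depth limits what can be detected.

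Members, gene lists and tests were chosen with earlier results of these data known. Named genes were the 10 members, Pdgfra, Pdgfrb, Egfr, Fgfr2, Fgfr4, up to 4 tested genes of each partner list with the smallest adjusted p, and the first 2 of each marker list; further names are background, markers at 0 counts or overlapping genes, or are said to be chosen after their values were seen. Alternatives were DESeq2 1.42.0, RLE or total-count scaling, no filter, a stricter filter (at least 1 CPM throughout 1 group, with 100 counts in total), a replicate block, MI libraries thinned to the mean sham depth, limma 3.58.1 on log2(TPM + 1), FPKM or 1 TPM added for ratios, FPKM for shares, and each library left out. The fit was tested on simulated data.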

Additional observations from a re-analysis of the deposited data

How the results depend on the processing

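Over 500 recomputed values, 485 kept their direction and their side of the threshold or stayed within 1.5 times. Ratios have no call there, so their size could move while counted as kept. With 1 TPM added instead of 0.1, the MI minus sham difference was -0.92 instead of -1.53 for Hgf/Met. It was 0.29 instead of 0.52 for Hbegf/Egfr and 0.45 instead of 0.16 for Fgf2/Fgfr1. The 9 genes other than Hbegf kept direction and call under all 14 settings of the fit. The counts of 4 higher and 5 lower held with each library left out. Hbegf passed under total-count scaling (-0.43) and limma on log2(TPM + 1) (-0.24). Higher genes among Hgf partners numbered 4 instead of 7 under DESeq2, total-count scaling and thinned MI libraries, and 4 to 5 with a library left out, including MI 1 (4), MI 2 (4), MI 3 (4) or sham 1 (4). Lower Fgf ligands numbered 5 instead of 3 with no filter, where more genes were tested. Lower Egf family genes numbered 1 instead of 3 with thinned MI libraries and 1 to 3 with a library left out (1 without MI 3). The Pdgfb share differed by 0.06 percentage points, and by -1.27 to 2.17 with a library left out; it was -1.01 without MI 2, -0.99 without MI 3 and -1.27 without sham 2. Where no value shows it, the cause was not tested. With the replicate number as a block, 4 genes were higher and 5 lower, the same as without it, and the call of no member changed (Hgf 3.70, Met 5.31, Pdgfd -2.97); over all genes 4764 rose and 4871 fell. Same-numbered libraries showed no shared deviation (r = -0.05, -0.02 and 0.02). With deviations taken from means of 3 libraries, this cannot exclude that they were paired. Depth limits Met, Hgf and Pdgfc in sham, each on 6 to 28.0 counts.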
